A study of Drosophila melanogaster with 3 samples.

Results

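The 8 genes CG13323, Ugalt, CG14100, CG11050, CG4004, PNPase, CG18549 and CG32772 lie at peaks of the very highest Lpt-GFP signal in white prepupae of Drosophila melanogaster. They were chosen by signal, the authors' enrichment value of a peak, in the list that pools the replicates and keeps peaks of reproducible rank by the irreproducible discovery rate (IDR). Each is the protein-coding gene whose transcription start site (TSS) is nearest to 1 of the 10 strongest of these 6110 IDR peaks, and they are 8 of 13945 coding genes on the 6 chromosome arms. The peaks that rank 4 and 8, nearest to cbt (signal 1861) and Hsp27 (1539), are not among them. The weakest of the 8 peaks (CG32772, rank 10) had a pooled signal of 1481, and the next peak down (nearest to Trl, rank 11) had 1470, so the boundary is not a gap in the signal. Ranks 12 to 15 were nearest to Lk6, larp, Chro and mRpL41 (1461 to 1382). Because signal chose the genes, signal and rank are given below as descriptions, without a test.

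Lpt belongs to the COMPASS-like assembly built around the methyltransferase Trr, which modifies histone H3, works largely at enhancers and acts with the ecdysone receptor. The white prepupa is the stage that opens metamorphosis, just after a pulse of ecdysone. All samples came from 1 transgenic line that stably expresses Lpt with GFP at its C terminus, whole animals of both sexes were pooled, and chromatin was precipitated with an antibody against GFP. Chromatin had been sonicated to 200 to 800 bp. The 3 biological replicates, each with 1 technical replicate, form a single group. Controls were not analysed here, so enrichment at these sites without Lpt-GFP was not measured, and the reads of the many cell types of a whole animal cannot be separated. The replicate lists in genome build dm6 held 30000, 30000 and 27893 peaks and background regions. Their depth in reads is unknown, and their median signals were 18.5, 25 and 16.7 in replicates 1, 2 and 3.

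Little is known of most of these genes. RefSeq calls the product of 6 of the 8 an uncharacterized protein. The share of all coding genes with that label was not counted, so the label is not shown to be particular to the 8. Of the others, Ugalt encodes a transporter that carries UDP-galactose into the Golgi for glycan synthesis, and PNPase encodes polynucleotide phosphorylase, an exonuclease that degrades RNA in mitochondria. RefSeq lists MFSD11 as another name of CG18549, the name of a vertebrate protein of the major facilitator family of transporters.

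The DNA at or beside 7 of the 8 summits is shown to let the sites be compared. Each line gives the summit with up to 50 bp on either side, from the RefSeq release 6 genome (dm6), plus strand, without annotated untranslated regions, and capitals mark the summit with 10 bases on each side. For Ugalt (X:2703853-2703941) and PNPase (3R:31404610-31404652), 89 and 43 bp remained outside untranslated regions, and only the last 3 bases of the PNPase run reach the marked stretch, because its summit lies in a 5′ untranslated region. The others are CG14100 (3L:19590572-19590672), CG11050 (2L:6612662-6612762), CG4004 (X:12751297-12751397), CG18549 (3R:12449133-12449233) and CG32772 (X:4910364-4910464).
Ugalt: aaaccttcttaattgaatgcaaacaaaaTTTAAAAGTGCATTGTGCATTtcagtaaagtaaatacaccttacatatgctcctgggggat
CG14100: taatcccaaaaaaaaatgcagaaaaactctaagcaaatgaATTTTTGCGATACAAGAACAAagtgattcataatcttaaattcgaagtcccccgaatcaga
CG11050: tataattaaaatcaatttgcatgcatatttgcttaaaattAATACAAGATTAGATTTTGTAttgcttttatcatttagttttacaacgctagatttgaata
CG4004: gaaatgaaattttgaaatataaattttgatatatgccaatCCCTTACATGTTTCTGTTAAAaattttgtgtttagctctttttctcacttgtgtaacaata
PNPase: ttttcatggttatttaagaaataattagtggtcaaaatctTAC
CG18549: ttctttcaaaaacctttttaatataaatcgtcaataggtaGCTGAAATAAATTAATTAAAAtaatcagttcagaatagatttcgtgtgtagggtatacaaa
CG32772: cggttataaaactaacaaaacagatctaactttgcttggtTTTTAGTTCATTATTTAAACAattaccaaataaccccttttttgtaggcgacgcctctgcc

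The 8 sites held no recognition sequence in common among the 12 that were searched. Within 100 bp of each summit, GATAA, the core bound by GATA factors, occurred at 4 of the 8 (CG13323, CG11050, PNPase and CG18549). It occurred at 35.0% of all IDR summits and in 39.7% of windows of the same length around coding TSSs. GAGAG, the repeat bound by the GAGA factor, occurred at the CG13323 summit only, against 30.6% of IDR summits and 25% of TSS windows. CTCTCT, a longer form that overlaps GAGAG read on the other strand, was also at CG13323 only (16.5% and 10.6%). CGATA was at CG14100, where it spans the summit from base -3 to base 1, and at CG18549, where it overlaps the GATAA match (20.2% and 37.1%). TGANTCA, the AP-1 type element, was at CG14100, 13 bp above the summit (4.55% and 3.79%). GAANNTTC, part of a heat shock element, was at CG14100 and CG18549 (5.24% and 6.66%). CAGGTA was at CG4004 (3.68% and 4.26%) and GCCAT, the core bound by Pho, at Ugalt (25.1% and 30.8%). No match was found in these windows for TATCGATA, the DNA replication-related element, which contains CGATA (1.10% and 6.45%), for GGTCACAC (0.802% and 5.68%), CACGTG (1.83% and 2.80%) or AGGTCA, an element bound by nuclear receptors (3.67% and 3.26%). All motifs were read on both strands, and a match is a description of the letters only. The counts depend on the window: within 200 bp of the summit GCCAT was at 6 of the 8, CGATA at 4, GAGAG at 3 and TATCGATA at 1, and within 50 bp GATAA was at 2, CGATA at 1 and GCCAT and GAGAG at 0. The percentages above hold for windows of 100 bp on either side only. No share of all IDR summits or TSS windows was counted at the other lengths, where it would change too, so those counts cannot be set against the percentages. The GC content of these windows ranged from 27.4% at CG4004 to 46.3% at Ugalt, with a median of 37.3%, close to the 36.3% over all IDR summits (quartiles 31.3% and 43.8%).

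Signal at the 8 peaks was near the top of every replicate list. Of the 8 peaks, 7 were among the 10 strongest of replicate 1, 7 among those of replicate 2 and 6 among those of replicate 3. Those among the 15 strongest of all 3 numbered 6, the exceptions being CG18549 (ranks 8, 7 and 21 in replicates 1, 2 and 3) and CG32772 (ranks 21, 8 and 15). The replicate lists entered the reproducibility procedure that gave the IDR peaks, so these ranks are not independent of the choice.

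The intergenic peak nearest to CG13323 had a signal of 594, 743 and 560 in replicates 1, 2 and 3, a mean of 632 ± 97.2 (SD, n = 3), and ranked 1, 1 and 3. The Ugalt peak had 583, 735 and 598, a mean of 639 ± 84.1 (SD, n = 3), and ranked 3, 2 and 2. The CG14100 peak had 594, 611 and 664, a mean of 623 ± 36.6 (SD, n = 3), and ranked 2, 9 and 1. CG14100 was the only 1 of the 8 with its highest value in replicate 3, and the other 7 were highest in replicate 2, the list with the highest median.

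The CG11050 peak had a signal of 515, 726 and 520, a mean of 587 ± 121 (SD, n = 3), and ranked 5, 3 and 5. The PNPase peak had 492, 653 and 495, a mean of 547 ± 92.1 (SD, n = 3), and ranked 6, 6 and 8. The CG4004 peak had 453, 607 and 502, a mean of 521 ± 78.4 (SD, n = 3), and ranked 10, 11 and 7. In these 3 genes replicates 1 and 3 lay closer to each other than to replicate 2, which stood above both.

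The CG18549 peak had a signal of 463, 640 and 412, a mean of 505 ± 120 (SD, n = 3). The CG32772 peak had 416, 616 and 438, a mean of 490 ± 110 (SD, n = 3). Ordered by mean, Ugalt led, followed by CG13323, CG14100, CG11050, PNPase, CG4004, CG18549 and CG32772. Each mean differed from the next by 6.55 to 40.1, less than the SD of either neighbour. Those SDs include a shift that most peaks share, since replicate 2 was highest for 7 of the 8. Compared within replicates, CG11050 was higher than PNPase in 3 of 3, and each of the other neighbouring pairs kept its order in 1 or 2 of 3. The first and the last differed by 149, more than either SD, and Ugalt was higher than CG32772 in 3 of 3 replicates.

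**Figure D1:**
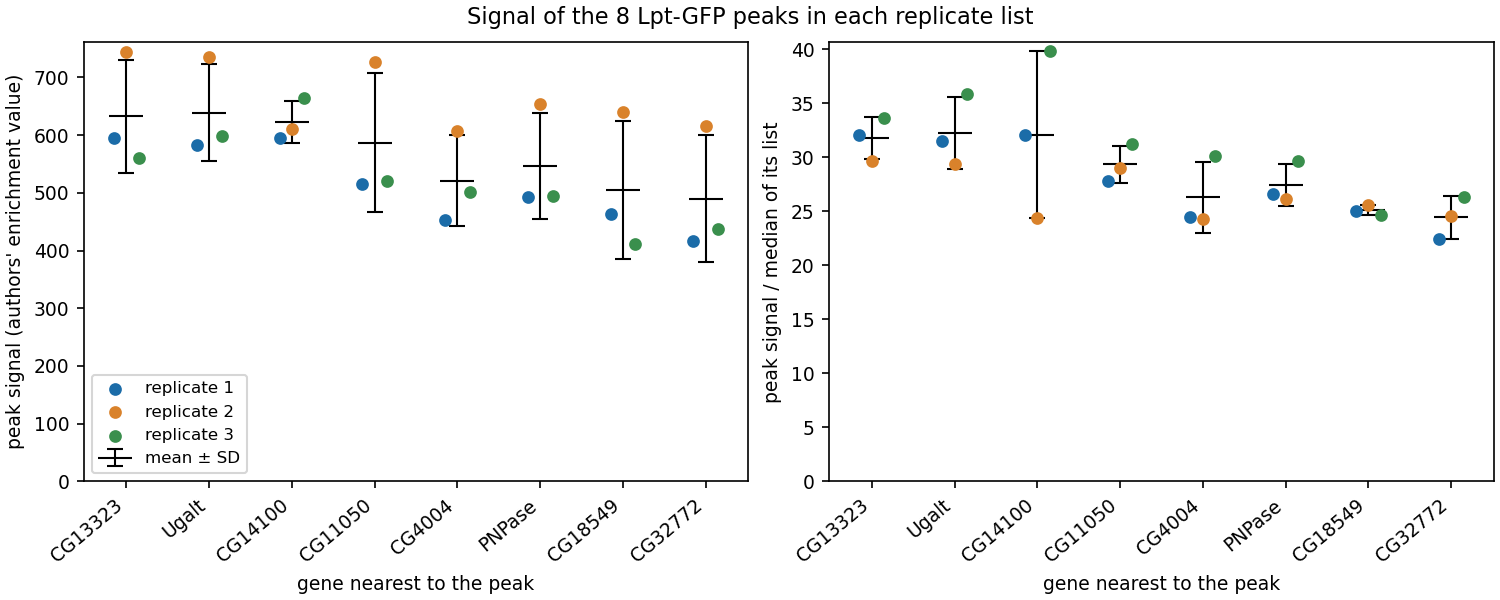
Signal of each of the 8 peaks in replicates 1, 2 and 3 (points) with mean ± SD (bars, n = 3), as deposited (left) and divided by the median signal of the same list (right). Replicate 2 is highest for 7 of the 8 on the left, and replicate 3 for 7 of the 8 on the right.

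Dividing by the median of each list changed which replicate was highest. On that scale the Ugalt peak was at 31.5, 29.4 and 35.9 times the median of its list in replicates 1, 2 and 3, a mean of 32.2 ± 3.30 (SD, n = 3). CG14100 was at 32.1, 24.4 and 39.8 times that median (32.1 ± 7.70, SD, n = 3) and CG13323 32.1, 29.7 and 33.6 times (31.8 ± 1.97, SD, n = 3). At the lower end, CG18549 was at 25, 25.6 and 24.7 times that median (25.1 ± 0.442, SD, n = 3) and CG32772 22.4, 24.6 and 26.3 times (24.5 ± 1.92, SD, n = 3). CG14100 thus varied least of the 8 between replicates as deposited and most after scaling, and CG18549 varied least after scaling.

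**Figure D2:**
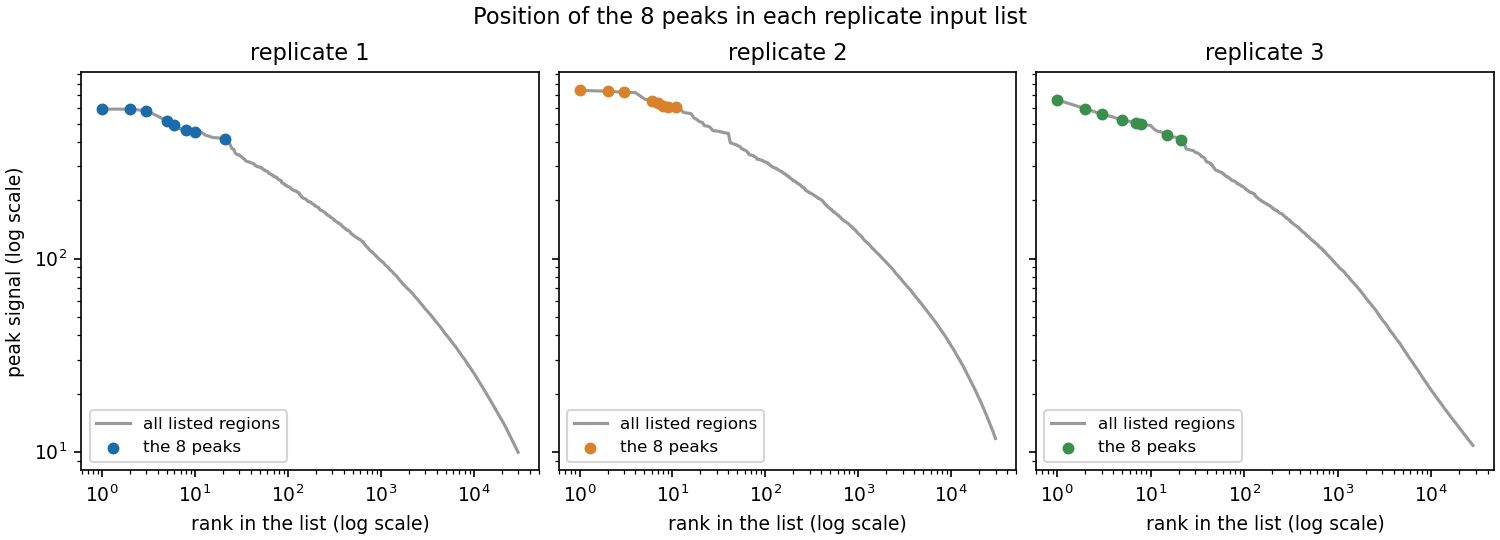
Signal against rank (both axes log) for every region of each replicate list (grey line), with the 8 peaks as points. All 8 lie at ranks 1 to 21.

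The position of the summits was closely repeated. The replicate summits of Ugalt lay within 1 bp of the pooled summit, those of CG14100 within 8 bp, CG13323 within 9 bp, CG11050 within 12 bp and PNPase within 13 bp. CG18549 reached 21 bp, CG32772 25 bp and CG4004 41 bp. Over the 8, the median shift was 1.5, 5.00 and 8.50 bp in replicates 1, 2 and 3, beside 20, 14.0 and 28.0 bp over all IDR peaks matched in the same lists. The pooled list derives from the same replicates. No shift is given for other strong peaks alone, so a small shift is not shown to be particular to the 8. The larger shifts were at CG4004 and CG32772, whose peaks were also the widest.

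Of the 8 summits, 5 lay within 1000 bp of a TSS, the distance used here for a promoter. Over all IDR peaks 47.3% did, and of the 100 strongest 76 did. At 4 of the 5 the TSS belongs to the named gene, and at the CG4004 peak it belongs to a noncoding gene. Of the remaining summits, those of CG11050 and CG32772 lie inside the gene and that of CG13323 is intergenic.

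At Ugalt the peak (X:2703708-2704066, 359 bp wide) had its summit 39 bp upstream of the TSS, and 146 bp upstream of a further TSS of the gene (X:2701124-2703852, minus strand). The gene on its other side, eIF2Bbeta, which encodes a subunit of a translation initiation factor, is transcribed away from the summit, with its TSS at 680 bp. The peak therefore lies between divergent promoters and counts for both genes. No other IDR summit lay within 40354 bp.

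At CG14100 the peak (3L:19590436-19590796, 361 bp) had its summit 98 bp upstream of the only TSS of the gene (3L:19589072-19590524, minus strand). The gene upstream is ash1, which encodes a Trithorax group histone methyltransferase (3L:19590773-19598755). It runs on the same strand, so the summit lies between the 3′ end of ash1 and the start of CG14100. The ash1 TSS is 8133 bp away and had no listed region within 1000 bp in any replicate list. The nearest other IDR summit was at 21701 bp.

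At PNPase the peak (3R:31404487-31404836, 350 bp) had its summit between 2 TSSs of the gene (3R:31401560-31405452, minus strand), 80 bp downstream of 1 and 92 bp upstream of the next. A further TSS of PNPase lies 792 bp upstream of the summit. The TSS of Gprk2, a G protein-coupled receptor kinase gene on the plus strand, lies 585 bp from the summit, so the peak counts for both genes. That TSS lies inside PNPase, between the summit and the outermost TSS of PNPase. The 2 genes thus overlap, and Gprk2 is divergent only from the 2 inner TSSs of PNPase. The nearest other IDR summit was at 20434 bp.

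At CG18549 the peak (3R:12449001-12449344, 344 bp) had its summit 113 bp upstream of the only TSS of the gene (3R:12449296-12456355, plus strand). The neighbour upstream, vrs, ends at 12449046 on the same strand. The nearest other IDR summit, 6410 bp away, stood 672 bp downstream of a TSS of Desat1, a fatty acid desaturase gene, with a signal of 53.1, 70.4 and 28.8 in replicates 1, 2 and 3 (50.8 ± 20.9, SD, n = 3). The CG18549 peak was 10.6 times as strong as that peak in the pooled list.

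CG11050 and CG32772 carried their strongest peak in an intron. The CG11050 peak (2L:6612509-6612908, 400 bp) lay in an intron of all 3 transcripts that span it, 1025 bp downstream of the nearest of 3 TSSs of the gene (2L:6611011-6617117, plus strand), just beyond the 1000 bp limit. A weaker peak stood 178 bp upstream of the first TSS. Its signal was 74.1, 87.9 and 48.4 in replicates 1, 2 and 3 (70.1 ± 20, SD, n = 3), and the intronic peak was 7.94 times as strong in the pooled list. The third summit in the window lay 356 bp upstream of Dpp10, which encodes a relative of dipeptidyl peptidases (63.0 ± 26.8, SD, n = 3).

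The CG32772 peak (X:4910016-4910799, 784 bp) lay 1312 bp downstream of the first TSS of the gene and 1967 bp upstream of the second (X:4909102-4915161, plus strand). The gene held further IDR summits. The first promoter carried a peak 79 bp downstream of its TSS (signal 221, 347 and 194 in replicates 1, 2 and 3, 254 ± 81.5, SD, n = 3, IDR rank 112). Upstream of the second TSS there were summits at 442 bp (102 ± 36.1, SD, n = 3) and 242 bp (51.3 ± 34.3, SD, n = 3). A further summit, 218 bp from the strongest, shares its interval (144 ± 32.0, SD, n = 3). In all, 5 of the 8 IDR summits of the window lay in CG32772. The remaining summits stood at Hgsnat, an acetyltransferase gene of heparan sulfate breakdown (86.9 ± 9.28 and 41.3 ± 1.94, SD, n = 3), and at CG6927 (63.9 ± 16.9, SD, n = 3). The weaker of those at Hgsnat (IDR rank 4912) also lay within 1000 bp of the TSS of CG4041, on the minus strand, and counts for both genes.

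The peak nearest to CG13323 is intergenic (2R:13035033-13035525, 493 bp, summit 2R:13035333). It lay 11923 bp downstream of the only TSS of CG13323 (2R:13044695-13047256, minus strand), past the 3′ end of the gene. On the other side the nearest TSS, 38210 bp away, is that of Su(z)2, a relative of the Polycomb group gene Psc. The promoter of CG13323 itself had no IDR summit within 1000 bp. Replicates 1 and 2 listed no region there, and replicate 3 listed 1 of signal 18.8 (rank 11619 of 27893), near the median of its list. The link of this peak to CG13323 is thus one of distance only. The nearest other IDR summit, 3049 bp away towards Su(z)2, ranked 1973.

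The peak given to CG4004 lay in a noncoding region (X:12750842-12751682, 841 bp). Its summit was in an exon of lncRNA:Vinr, 1453 bp downstream of the TSS of that gene, 520 bp upstream of the TSS of lncRNA:CR44619 and 5030 bp downstream of the nearest TSS of CG4004 (X:12744212-12749785, plus strand). At the promoter of CG4004 there was a peak 74 bp downstream of a TSS, with a signal of 47.3, 47.6 and 47.5 in replicates 1, 2 and 3 (47.5 ± 0.128, SD, n = 3, IDR rank 4502). All 3 replicates were far below the 453 to 607 of the strong peak.

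The CG4004 window was also the densest. It held 14 IDR summits, of which 6 lay in Smr, which encodes a corepressor of the ecdysone receptor, 3 in lncRNA:CR44619, 2 in lncRNA:Vinr and 1 in CG4004. The second strongest, 1011 bp from the first, lay in lncRNA:CR44619 (263, 382 and 289 in replicates 1, 2 and 3, 311 ± 62.5, SD, n = 3, IDR rank 53). The strongest in Smr lay 4662 bp downstream of the nearest TSS of that gene (174, 313 and 154, 214 ± 86.5, SD, n = 3, IDR rank 175). The strongest peak of the window was 1.75 times the second in the pooled list, and at CG32772 the ratio was 1.97.

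The 8 windows, each gene with 12 kb on either side, differed widely in what else they held. They contained 31 IDR summits in all. The windows of CG13323, Ugalt, CG14100 and PNPase held the 1 strong summit and no other, those of CG18549 and CG11050 held 2 and 3, and those of CG32772 and CG4004 held 8 and 14. Counted from the summit instead, 3 of the 8 peaks (Ugalt, CG14100 and PNPase) had no other IDR summit within 12 kb, beside 14.5% of all IDR peaks and 17 of the 100 strongest. Of the 23 other summits, 12 were within 1000 bp of a TSS, 14 belonged to the stronger 3055 IDR peaks and 5 to the strongest 10%. In the lists before the reproducibility threshold the CG4004 window again held the most regions, 32, 31 and 25 in replicates 1, 2 and 3, and the Ugalt window held 3, 1 and 2. The order of the others differed from that by IDR summits. The CG18549 window held 10, 11 and 6 regions, more than the 9, 10 and 12 of CG32772 in replicates 1 and 2. The CG13323 window held 7, 6 and 4, more than the 6, 5 and 4 of CG11050 in replicates 1 and 2.

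**Figure D3:**
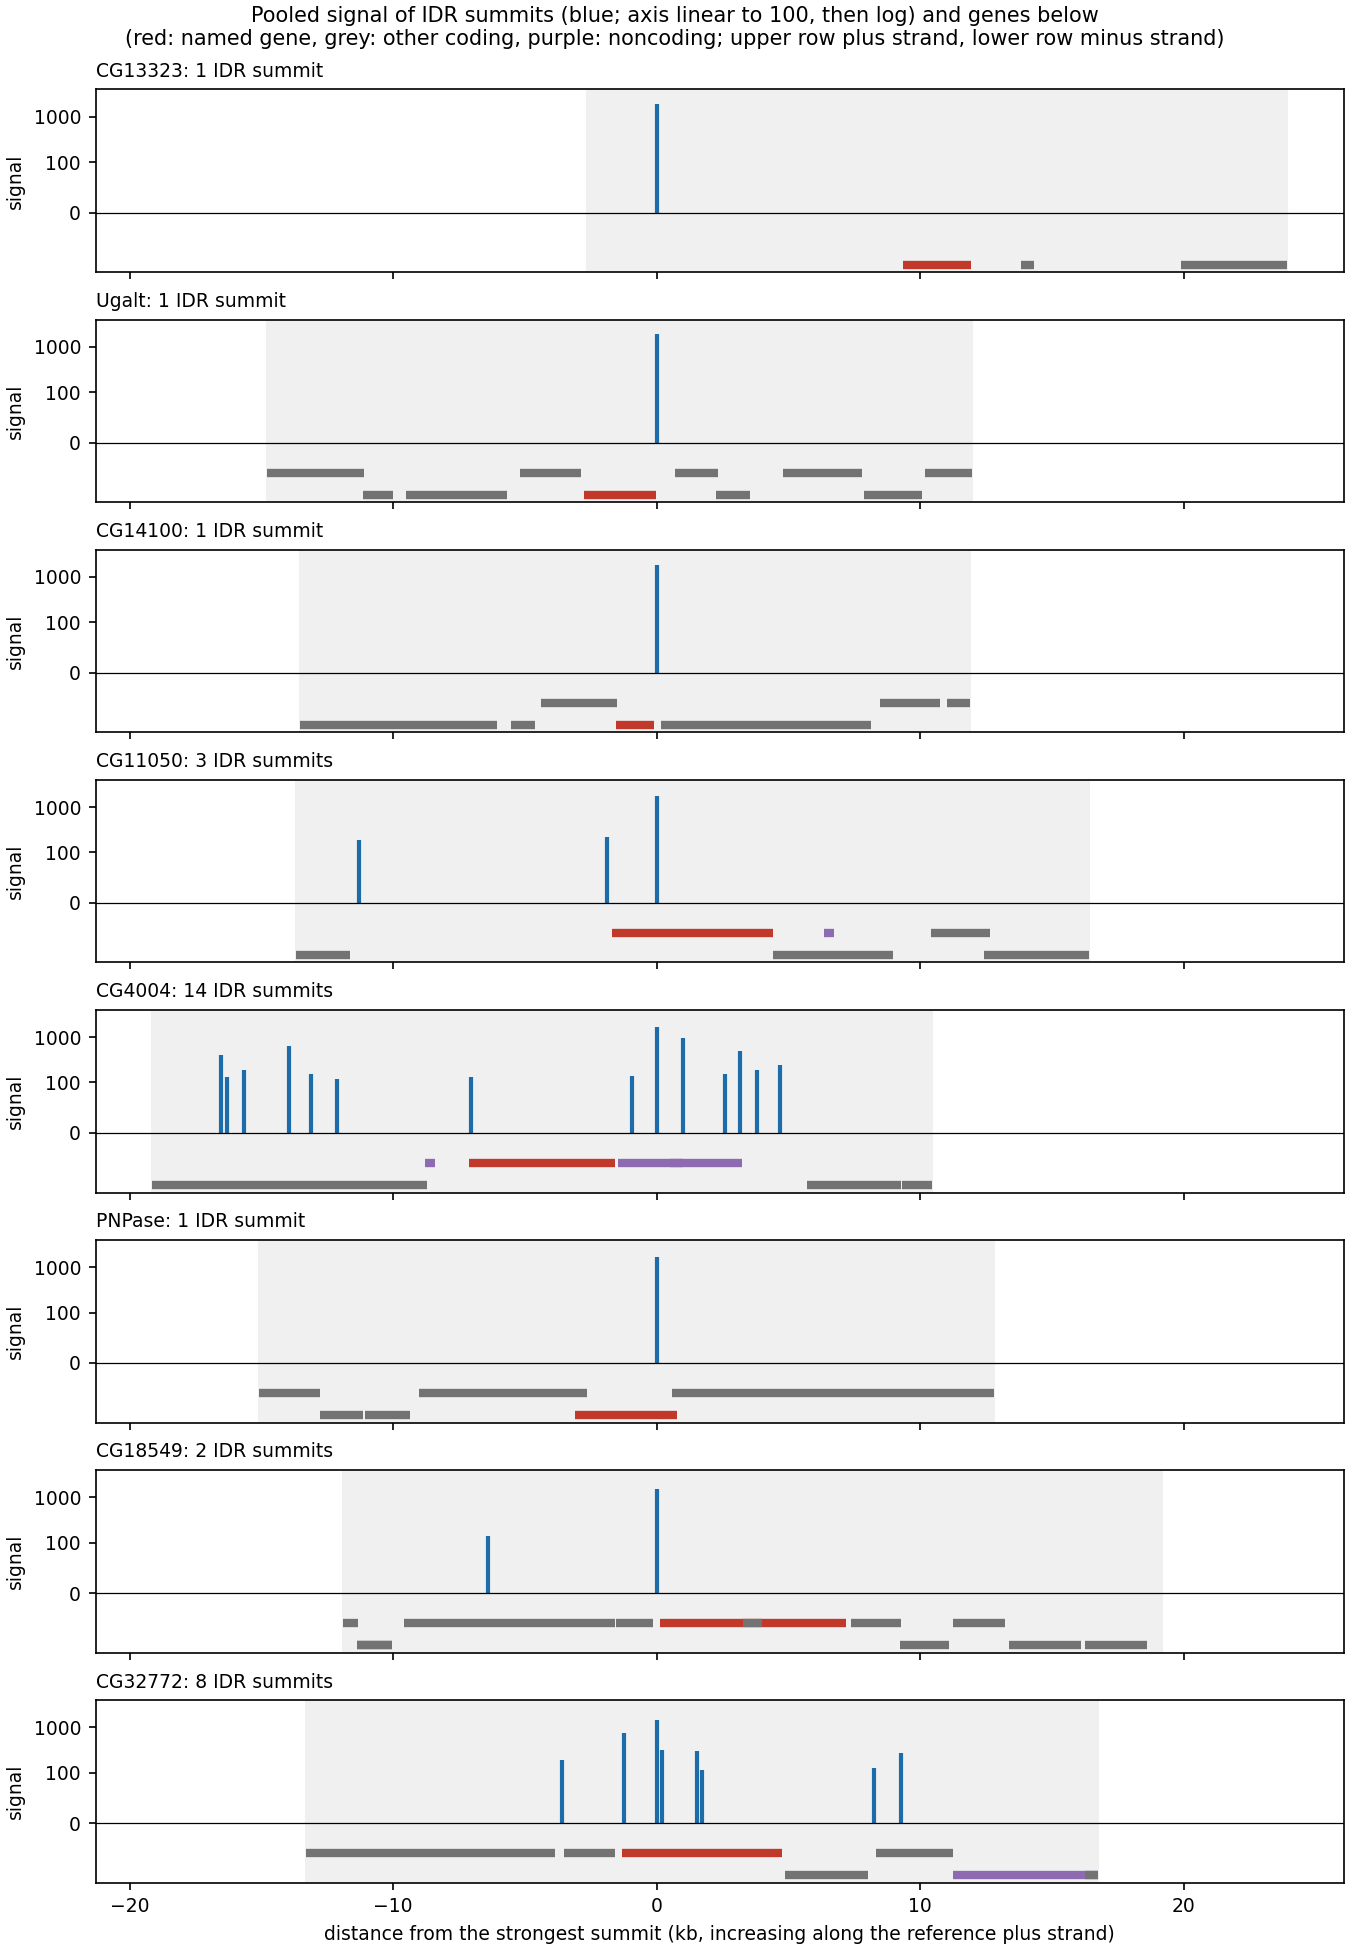
IDR summits in the 8 windows (grey shading, gene with 12 kb on each side), by distance from the strongest summit in kb. Blue lines give pooled signal on an axis that is linear to 100 and logarithmic above. Bars below are genes: red the named gene, grey other coding genes, purple noncoding genes. CG4004 (14 summits) and CG32772 (8) stand apart from Ugalt, CG14100, PNPase and CG13323 (1 each). For CG13323 a further IDR summit lies 3049 bp from the strongest, just outside the window.

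The 8 windows hold 45 coding genes other than the 8, and 9 of them (20%) had an IDR summit within 1000 bp of a TSS, beside 19.2% of all coding genes. Of the 8 themselves, which were chosen for a nearby peak, 7 had one, CG13323 being the exception. At CG11050, CG4004 and CG32772 it was not the peak that chose the gene but a weaker one (best IDR ranks 1961, 4502 and 112). A promoter summit can lie outside the window, as those of CG1607 near PNPase and of CG44774 near CG32772 do. Of the 9 neighbours, eIF2Bbeta and Gprk2 had the strong peak itself. In the CG13323 window 0 of 3 coding genes had a promoter summit, and in the CG32772 window 5 of 6 had one, both counts including the named gene.

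The 8 peaks included both narrow and very wide ones. The commonest width, 436 bp, was shared by 81.7% of IDR peaks. The 4 promoter peaks of coding genes were narrower, from 344 bp at CG18549 to 361 bp at CG14100, and so was CG11050 (400 bp). Of all IDR peaks 17.7% were narrower than 436 bp, but of the 100 strongest 82 were, so a narrow peak was commoner among the 100 strongest than over the whole list. CG13323 (493 bp), CG32772 (784 bp) and CG4004 (841 bp) were at least as wide as 99.7%, 99.9% and 99.9% of IDR peaks. Because most peaks share 436 bp, any wider peak stands near the top of that scale. Great width was not particular to the 8. The peaks nearest to ph-p (rank 17, 1411 bp) and RYBP (rank 18, 535 bp) were wider than that of CG13323. Those nearest to Chro (rank 14, 352 bp) and mRpL41 (rank 15, 347 bp) were narrow. In each replicate list CG32772 (670, 771 and 636 bp in replicates 1, 2 and 3) and CG4004 (598, 852 and 719 bp) were the widest of the 8. The CG13323 peak was 381, 487 and 307 bp wide. The usual width in the replicate lists is not given here, so these widths are compared among the 8 only.

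**Figure D4:**
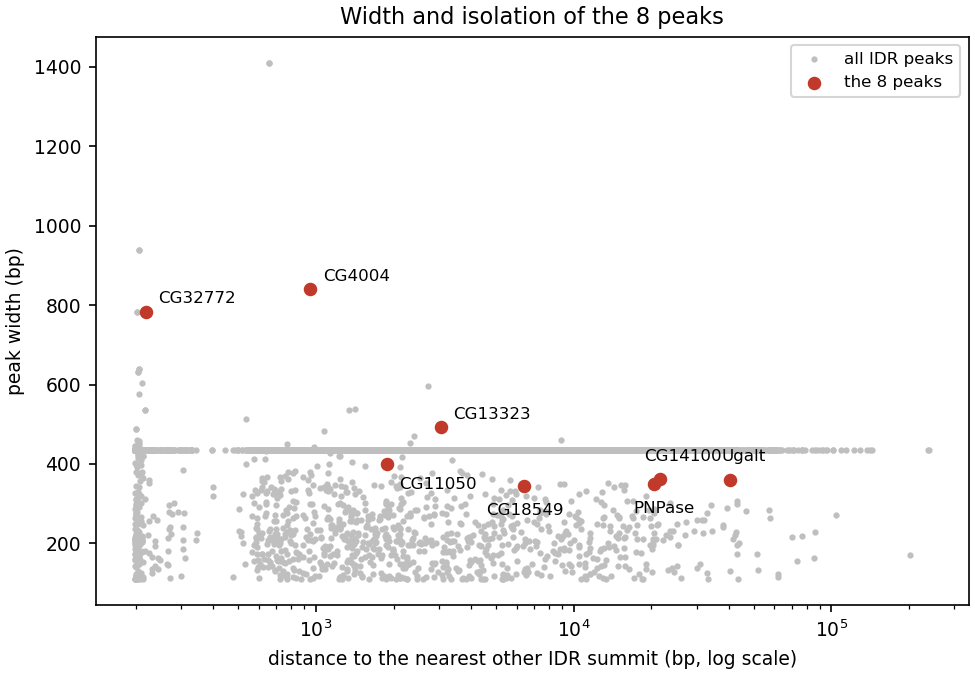
Width of every IDR peak (grey) and of the 8 peaks (red) in bp against the distance to the nearest other IDR summit in bp (log axis). Ugalt, CG14100 and PNPase combine a width of 350 to 361 bp with more than 20 kb to the next summit. CG4004 and CG32772 are wide and have a summit within 1 kb.

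Other genes of the pathways of the 2 better known members were examined from fixed lists. Of 7 genes of nucleotide sugar transporters and related transporters, 3 had an IDR summit within 1000 bp of a TSS. That is 42.9%, beside 19.2% of all coding genes, and Ugalt, 1 of the 3, was chosen for its peak. The others were frc, which encodes a Golgi transporter of UDP sugars that modifies Notch signalling (signal 197, 165 and 220 in replicates 1, 2 and 3, IDR rank 228), and senju, a UDP-galactose transporter (63.2, 126 and 84.7, rank 1286). Efr, nac, sll and Papst2 had none. All values of frc and senju were below the 583 to 735 of Ugalt.

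Of 15 genes of mitochondrial transcription and RNA metabolism, 4 had a promoter summit (26.7%, beside 19.2% of all coding genes). Without PNPase, chosen for its peak, the count was 3 of 14 (21.4%), and without Ugalt the transporter list had 2 of 6 (33.3%). SLIRP2, which encodes an RNA-binding protein, had a signal of 258, 251 and 237 in replicates 1, 2 and 3 (rank 116), its relative SLIRP1 a mean of 91.1 ± 9.82 (SD, n = 3, rank 1294), and mtTFB1, an rRNA methyltransferase gene, 67.4, 62.8 and 13.7 (rank 3513). At mtTFB1 replicate 3 was below the median of its list. No IDR summit lay within 12 kb of Suv3, which encodes the mitochondrial RNA helicase that works with PNPase.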

How the data were processed

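Peak lists in dm6 were used as the authors deposited them: 1 list of peaks and background regions for each of 3 replicates, 1 for the pooled replicates, and 1 thresholded by the irreproducible discovery rate (IDR), which keeps peaks of reproducible rank. Per the deposited descriptions, the input lists derive from alignments and 1 further file, which is not used here. The aligner, peak caller and IDR cutoff were not given in the sources used here. The deposited signal is read as an enrichment value, as the peak format defines that column. The deposited column that the peak format defines as a −log10 q-value, whose meaning in these lists no source used here states, reached its shared maximum in 87.1% of IDR peaks and in all 8 described here, so peaks were ranked by signal.

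Distances were measured to TSSs of the Ensembl release 115 annotation without transposable elements. A replicate peak was matched to one of the 8 peaks when it shared at least 1 base (the strongest if several), and to other peaks by the nearest summit among those overlapping. Replicates were grouped by the labels. With 1 group no test between groups was possible, and none was made. The genes and lists were chosen with earlier results of these data known. Named genes were the 8, the genes next to or holding each summit, and list members with a promoter summit. Others in the 8 windows (Smr, Hgsnat, CG4041, CG6927, Dpp10, Desat1) hold or adjoin further summits and were named after their values were seen. So were pathway genes without a promoter summit. The distance, overlap and motif functions were tested on simulated peaks. Symbols were matched through RefSeq synonyms where needed, and all were found. Alternatives covered TSS distance, overlap rule, window size, stricter peak sets and leaving out each replicate. The dm3 lists were not used. Computation used numpy 2.4.6 and pandas 2.3.3 under Python 3.11.15, with figures from matplotlib 3.10.9.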

Additional observations from a re-analysis of the deposited data

How the results depend on the processing

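The number of the 8 summits at promoters was 5 as reported, 4 with coding TSSs only, and lay between these and 7 over the other TSS distances and the replicate summits. The share of all IDR peaks was counted at 1000 bp from any TSS only. Their distance to a TSS had an upper quartile of 4229 bp, so most of them also lay within 5000 bp. The 31 IDR summits in the windows fell to 8 when only gene bodies were counted. The 3 isolated peaks became 1 when the pooled input list took the place of the IDR list, an alternative chosen after seeing the data. The median width of the 8 peaks was 380.5 bp in the IDR list and 304.5 bp in the list of replicate 3. The 4 mitochondrial genes with a promoter summit became 9 within 5000 bp of a TSS. The share of all coding genes was not counted at that distance, so the 9 cannot be set against the 19.2% at 1000 bp. The cause of these shifts was not tested beyond the change of distance or list itself. Motif counts rose or fell with the window, as given above. Leaving out 1 replicate at a time gave a mean signal of 517 to 623 at CG11050, where it was 587. At CG14100 it gave 603 to 638, where the mean was 623. With 3 replicates such a shift cannot exceed 1 SD, so its size against the SD says nothing of how stable the means are. Measured against the median of the strongest peaks of each replicate in place of the whole list, the 8 stood at 8.33 to 11 times it, not 24.5 to 32.2. No paired analysis was possible because all samples belong to 1 group, so no groups could be paired. Peaks were compared within replicates above. Depth in reads is unknown, so no counting error can be given for any peak.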
